A study of Homo sapiens with 2 samples.

Results

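The unfolded protein response and ATF4 stress genes were followed in A549 cells, which derive from a human lung carcinoma, after 12 h without TGF-β or with TGF-β at 1 ng/ml. The set was chosen by gene symbol, and every probe set annotated to 1 of 42 genes was taken. Of these 42 genes, 41 were measured among 12375 genes kept on the arrays. SYVN1, an E3 ligase of the endoplasmic reticulum (ER), was not measured because its probe set is annotated to a further gene as well. RNA of each culture was hybridized to 1 Affymetrix array, so the comparison has no replicate check, no test was run, and precision is limited by there being 1 array per condition. Any other difference between the cultures cannot be told apart from that of TGF-β. Values are MAS5 signals, intensities on a linear scale that combine the probe pairs of a probe set, and each gene is given by its brightest probe set unless others are named. A fold is the ratio of the signals with and without TGF-β, and a gene was called higher or lower at 2-fold, or at 1.5-fold where this is said.

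Proteins that fail to fold in the ER are sensed by the membrane proteins IRE1 (encoded by ERN1), PERK (encoded by EIF2AK3) and ATF6. IRE1 splices the mRNA of XBP1, a transcription factor that raises chaperones and the machinery of ER-associated degradation (ERAD), and ATF6 acts on many of the same genes after it is cut by Site-1 and Site-2 protease. PERK phosphorylates eIF2α, which favours translation of ATF4, and ATF4 and its target CHOP (encoded by DDIT3) drive genes of amino acid supply, redox balance and cell death. CREB3L1, the factor that the study follows, belongs to the same class of ER membrane proteins as ATF6, and ER stress is a known trigger of its cleavage. The comparison therefore addressed whether the stress programme moved at the mRNA level while TGF-β was present. The paper had looked at ER stress by another assay, RT-PCR of XBP1, and saw no splicing induced by TGF-β. It states that ER stress does not appear involved in the cleavage.

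ATF6 and XBP1 are known to act through the ER stress element, which is CCAAT, any 9 bases and CCACG. It is shown because it is the standard promoter element of this response. In the RefSeq promoter windows (GRCh38.p14, 250 bases before to 50 bases after a transcript's start), 37 of the 42 genes had an entry. On either strand, 7 of the 37 held the element, against 0.0916% of 27305 genes with a window. The 7 were XBP1 and, of 14 chaperones with a window, the 6 genes HSPA5, HSP90B1, CALR, CANX, PDIA6 and CRELD2. Each site is written 5′ to 3′ in the direction of the element, with its fixed letters in capitals.
XBP1, chr22:28800603-28800621, minus strand: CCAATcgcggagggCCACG
HSPA5, chr9:125241391-125241409, minus strand: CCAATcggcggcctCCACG
HSP90B1, chr12:103930216-103930234, plus strand: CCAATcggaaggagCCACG
HSP90B1, chr12:103930321-103930339, minus strand: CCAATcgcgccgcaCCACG
CALR, chr19:12938384-12938402, minus strand: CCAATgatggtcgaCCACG
CANX, chr5:179698778-179698796, plus strand: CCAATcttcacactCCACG
PDIA6, chr2:10812853-10812871, minus strand: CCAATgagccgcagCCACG
CRELD2, chr22:49918554-49918572, minus strand: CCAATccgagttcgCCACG

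None of the 12 ATF4 and CHOP arm genes with a window held this element. The amino acid response core bound by ATF4 and its partners, TGATGNAA, lay on either strand in the windows of 4 of these 12 genes and of HERPUD1, against 4.46% of all genes with a window. It is shown to set this arm beside the chaperones, with the core in capitals and 6 flanking bases on each side.
ATF3, chr1:212565210-212565229, plus strand: tcaggaTGATGGAAggctgt
CEBPG, chr19:33374065-33374084, plus strand: ggcgtcTGATGCAAcctgcc
ASNS, chr7:97872463-97872482, minus strand: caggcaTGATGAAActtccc
CHAC1, chr15:40953256-40953275, minus strand: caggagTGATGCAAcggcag
HERPUD1, chr16:56931960-56931979, minus strand: acgggcTGATGCAAcccgcc

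CCACG alone, which is also the end of the ER stress element, was in the windows of 29 of the 37 genes (42.1% of all genes), and TGACGTG in those of HYOU1, DNAJC10, SEC61A1 and SEC23A (2.40% of all genes). A match is a string of letters and not a bound site. With the last base of the ER stress element left free, the share of all genes was 0.381%, and DDIT3 and HERPUD1 were added to the 7. The 250 bases before the start of HSPA5 and of DDIT3 are given with these letters in capitals, because HSPA5 is the standard readout of the chaperones and DDIT3 was the gene that changed. DDIT3 had 2 windows, and only the first listed is shown.
HSPA5, chr9:125241344-125241593, minus strand: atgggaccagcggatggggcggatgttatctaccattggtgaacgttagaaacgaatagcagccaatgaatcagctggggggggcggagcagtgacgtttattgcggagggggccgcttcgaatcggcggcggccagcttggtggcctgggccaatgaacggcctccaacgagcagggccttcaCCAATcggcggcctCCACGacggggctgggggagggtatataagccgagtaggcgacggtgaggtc
DDIT3, chr12:57520515-57520764, minus strand: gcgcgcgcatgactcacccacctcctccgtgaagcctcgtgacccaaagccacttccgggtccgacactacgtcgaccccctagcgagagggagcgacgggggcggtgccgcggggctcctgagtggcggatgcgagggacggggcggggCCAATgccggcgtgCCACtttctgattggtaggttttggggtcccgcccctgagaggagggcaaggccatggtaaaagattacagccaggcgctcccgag

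The arrays carried the response to TGF-β: COL1A1, a collagen gene, read 821 without and 10680 with TGF-β, and TM4SF20 went from 1715 to 339. Both are on the study's list of TGF-β-regulated genes, which was drawn from its microarray comparison, so they are no independent check. All 9 markers of A549 and epithelial cells, such as KRT18, were above background on both arrays. The background is the highest signal among 27 probe sets for bacterial transcripts, 45.8 without and 56.6 with TGF-β. Of the markers of other cells, 0 of 6 fibroblast, 2 of 5 leukocyte (CD3E and CD14) and 1 of 5 endothelial genes (PECAM1) exceeded it on both arrays, and none of them was above 190. CD14 read 190 and 63.0, and the summed signals were 316 and 221 for the leukocyte, 136 and 152 for the fibroblast and 93.2 and 122 for the endothelial genes without and with TGF-β. Their part in the results was not tested.

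After 12 h with TGF-β the stress genes as a whole were close to their control signals, and DDIT3 alone was called. Of the 41 measured genes, 0 were at least 2-fold higher and 1 was at least 2-fold lower, while 3.94% of all 12375 genes were higher and 2.96% were lower by that rule. At 1.5-fold the counts were again 0 and 1, against 9.16% and 9.08% of all genes. Signals of bright genes scatter less, and 38 of the 41 genes were among the brighter ones, with a mean of both signals at or above the 75 percentile over probe sets. Among the 7815 genes at this brightness, 2.52% were at least 2-fold higher, 0.806% at least 2-fold lower, 6.18% at least 1.5-fold higher and 3.90% at least 1.5-fold lower. The signals of 35 of the 41 genes differed by less than 1.3-fold, which held for 78.4% of these brighter genes. The median log2 fold change was 0.08 for the 41 genes and -0.03 for all genes.

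**Figure D1:**
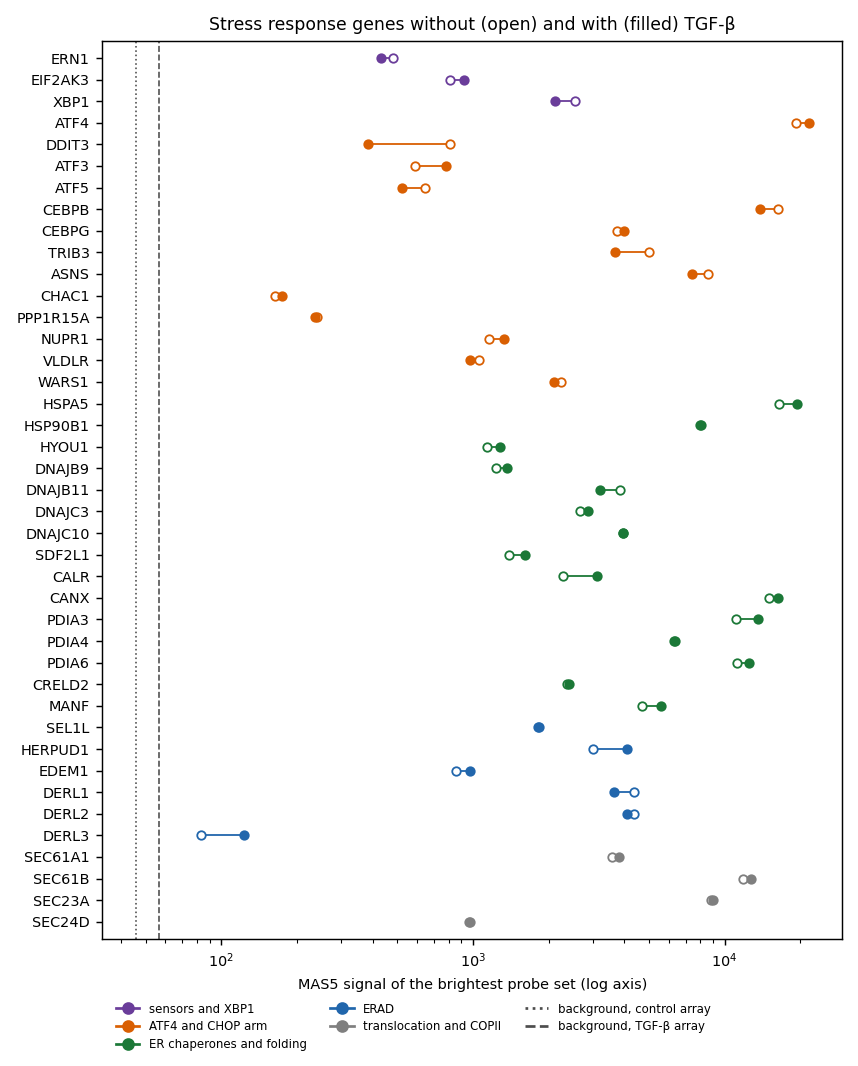
MAS5 signals of 41 genes, 1 array each, with open points for control cells and filled points for cells given TGF-β, on a log axis, coloured by group. Vertical lines mark the background, 45.8 in control and 56.6 with TGF-β. All points lie above both lines, and the longest bar is that of DDIT3, from 809 to 382.

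DDIT3, which encodes the transcription factor CHOP, read 809 in control cells and 382 with TGF-β, which is 2.12-fold lower (log2 fold change -1.08). This was the fall ranked 297 among 12375 genes. Probe sets of similar brightness had a median log2 fold change of -0.05 with a spread of 0.34, where the spread is the median absolute deviation over the 500 nearest probe sets, scaled to match a standard deviation, and not an error between replicates. DDIT3 was measured by a single probe set, so no second one bears on the value. With 50 added to every signal its log2 fold change was -0.99, just short of 2-fold.

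The sensors differed little between the arrays. ERN1 read 481 without and 432 with TGF-β. EIF2AK3 read 813 and 922. XBP1 read 2538 and 2110, 1.20-fold lower with TGF-β, on a signal that does not separate its spliced from its unspliced mRNA. The 3 kept probe sets of ERN1 gave log2 fold changes between -0.29 and 0.47, so they did not share a direction. A dim XBP1 probe set, below the filter, read 35.5 and 60.5.

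In the ATF4 and CHOP arm, 1 of 13 genes was called lower and 12 were within 1.5-fold, with a median log2 fold change of -0.08. Of all genes, 2.96% were at least 2-fold lower, 9.08% at least 1.5-fold lower and 81.8% within 1.5-fold. Among the brighter genes these shares were 0.806%, 3.90% and 89.9%. A single called gene is too few to read the arm as different from genes at large. ATF4, the factor that heads the arm, read 19256 in control cells and 21591 with TGF-β, 1.12-fold higher. Probe sets as bright as that of ATF4 had a median log2 fold change of 0.11, and its own was 0.17. CEBPG, a partner of ATF4, read 3752 and 3969, but its second probe set, of similar brightness, went from 3762 to 3564. CEBPB, a related C/EBP factor, read 16302 without and 13808 with TGF-β. The factors of the arm therefore lay on both sides of their control signals.

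ATF3, a repressor induced in many kinds of stress, read 586 and 783, a log2 fold change of 0.42, whereas its other kept probe set gave -0.41. ATF5, whose mRNA is translated under control of eIF2α like that of ATF4, read 644 and 524 by its brightest probe set. A further ATF5 probe set went from 349 to 149, which is 2.35-fold lower, and this was the largest fall among the 78 kept probe sets of the stress genes. Both are named as sharing targets with other transcripts (their names end in _s_at), and 2 dim ATF5 probe sets were below background on both arrays. ATF5 was thus lower by both kept probe sets but differed in size between them.

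TRIB3, a pseudokinase that is a target of ATF4 and CHOP, read 4989 without and 3652 with TGF-β, 1.37-fold lower. Its second probe set went from 233 to 146, which is 1.59-fold lower, so both had the direction of DDIT3. ASNS, the asparagine synthetase, read 8575 and 7413. CHAC1, which degrades glutathione, read 164 and 175. PPP1R15A, also called GADD34, which leads to dephosphorylation of eIF2α, read 239 and 236, and its other probe set 216 and 199. These targets of the arm were within 1.3-fold of control except TRIB3. NUPR1, a small stress-induced nuclear protein, read 1155 and 1328. VLDLR, a lipoprotein receptor known as a target of PERK and ATF4, read 1056 and 969. WARS1, the tryptophanyl-tRNA synthetase, read 2232 and 2106, and its dimmer probe set 848 and 660. Of the 13 genes, 5 had log2 fold changes above 0 and 8 below 0.

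The chaperones and folding enzymes of the ER were within 1.5-fold in 15 of 15 genes, as were 89.9% of the brighter genes, and had a median log2 fold change of 0.15. In 14 of them the signal with TGF-β was the higher one, by up to 1.36-fold, while 45.4% of all genes had log2 fold changes above 0. This count is a description of 2 arrays, and it was 12 of 15 with quantile scaling, 10 by whichever probe set changed most, 11 by the median over probe sets and 8 of 12 without probe sets whose names mark shared targets. The 18 other ER folding genes, taken up below, did not share this direction. Of them, 5 had log2 fold changes above 0 and 13 below 0, with a median of -0.08. HSPA5, also called BiP, the main Hsp70 chaperone of the ER, read 16386 without and 19331 with TGF-β, which is 1.18-fold higher (log2 0.24). Probe sets as bright as this had a median log2 fold change of 0.08 and a spread of 0.13. The dimmer HSPA5 probe set went from 232 to 329, a log2 fold change of 0.50, so both probe sets had the same direction.

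HSP90B1, also called GRP94, the Hsp90 chaperone of the ER, read 7953 and 8084, while its dimmer probe set went from 469 to 710. HYOU1, an exchange factor for HSPA5, read 1135 and 1276. The cochaperones with a J domain, which work with Hsp70 proteins, lay on both sides of control. DNAJB9 read 1229 and 1363, but its dimmer probe sets went from 896 to 810 and from 419 to 334. DNAJB11 read 3852 and 3192, the one chaperone whose brightest probe set was lower with TGF-β. DNAJC3, also called p58IPK, read 2660 and 2860. DNAJC10, which is also a disulfide reductase, read 3934 and 3963. SDF2L1, which forms a complex with DNAJB11, read 1392 and 1609. DNAJC3 had the widest range over its probe sets among all the stress genes, with log2 fold changes from -0.45 to 0.93, the latter from a probe set that read 142 without and 270 with TGF-β.

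The lectin chaperones calreticulin and calnexin bind glycoproteins that are still folding. CALR read 2284 without and 3097 with TGF-β (log2 0.44), but its other probe sets gave 0.05 and 0.13. CANX read 14970 and 16257, and 2 of its 4 kept probe sets were lower with TGF-β. Their difference therefore depended on the probe set. The protein disulfide isomerases form disulfide bonds. PDIA3 read 11109 and 13528, a log2 fold change of 0.28, and its dimmer probe sets gave 0.33 and -0.23. PDIA4 read 6319 and 6345, nearly equal signals, and its dimmer probe set gave -0.07. PDIA6 read 11235 and 12487. The 4 probe sets of PDIA6 gave log2 fold changes between 0.04 and 0.19, so they lay close together. CRELD2 and MANF are secreted or ER-resident proteins induced by ER stress. CRELD2 read 2364 and 2416. MANF read 4705 and 5596, a log2 fold change of 0.25.

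**Figure D2:**
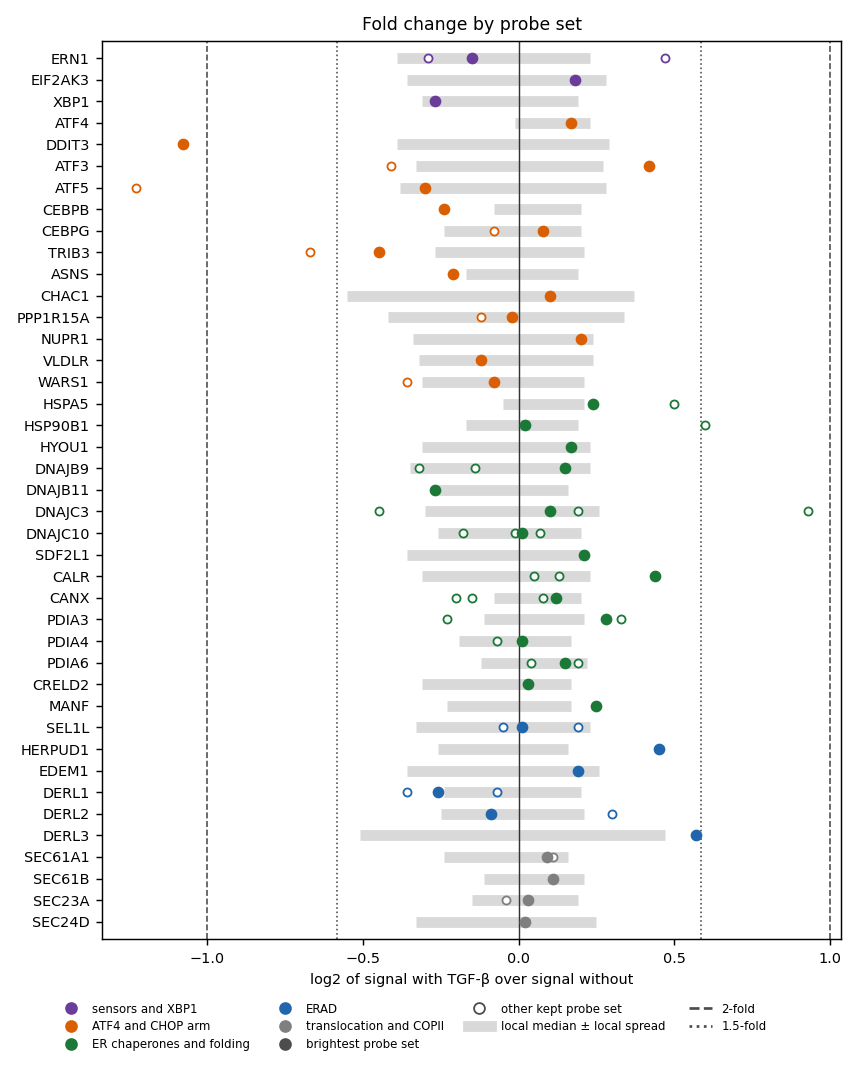
Log2 fold change (TGF-β over control) of each kept probe set of 41 genes, with the brightest probe set of a gene filled and the others open. Grey bars are the median ± spread of probe sets of similar brightness, dashed lines mark 2-fold and dotted lines 1.5-fold. DDIT3 and a second probe set of ATF5 lie left of the lower 2-fold line, and none of the probe sets lies right of the upper 2-fold line.

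In ERAD, 0 of 6 measured genes passed 1.5-fold, a rule that 9.16% of all genes passed upward and 9.08% downward, and the median log2 fold change was 0.10. HERPUD1, a membrane protein that organizes the degradation complex, read 3009 without and 4105 with TGF-β, 1.36-fold higher. SEL1L, the adaptor of that complex, read 1812 and 1828. EDEM1, a lectin that delivers glycoproteins to it, read 853 and 976. The derlins, thought to form part of the channel back to the cytosol, were unlike each other. DERL1 read 4360 and 3630, with all 3 kept probe sets lower with TGF-β. DERL2 read 4353 and 4092. DERL3 read 83.1 and 123, a log2 fold change of 0.57 that was just short of 1.5-fold, and its second probe set also gave 0.57. With the arrays rescaled by medians, quantiles or loess DERL3 passed 1.5-fold, and its signals were not far above background.

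Entry into the ER and exit from it were near control. SEC61A1 and SEC61B form part of the channel through which chains enter the ER. SEC61A1 read 3574 and 3795. SEC61B read 11776 and 12732. SEC23A and SEC24D are subunits of the COPII coat, which carries cargo such as procollagen out of the ER. SEC23A read 8815 without and 8974 with TGF-β. SEC24D read 961 and 972. All 4 genes had log2 fold changes between 0.02 and 0.11.

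The 7 genes with the ER stress element in the windows printed above had log2 fold changes between -0.27 (XBP1) and 0.44 (CALR), with a median of 0.12, and 0 of 7 passed 1.5-fold. The 5 genes with the amino acid response core lay between -0.21 (ASNS) and 0.45 (HERPUD1), and 0 of 5 passed 1.5-fold. Of all genes, 9.16% passed 1.5-fold upward and 9.08% downward, and 40 of the 41 stress genes were within it. Counts of 0 in so few genes therefore do not set the genes with a motif apart. Nothing about binding of a factor can be read from the fold changes.

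Where a stress gene had more than 1 kept probe set, these often disagreed in sign. In 11 of 23 such genes all kept probe sets lay on the same side of equal signals, and in 12 they lay on both sides. The median range over the probe sets of a gene was 0.28 on the log2 scale. This range is of the size of most changes given above, whereas DDIT3, with 1 probe set, gives no such range.

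Other genes of the same pathways, and heat shock genes from outside the ER, were taken from 8 lists with 125 measured genes. Of these, 2 were at least 2-fold higher and 1 was at least 2-fold lower, and at 1.5-fold 5 were higher and 6 lower. The shares of all genes were 3.94% and 2.96% at 2-fold and 9.16% and 9.08% at 1.5-fold. Their median log2 fold change was -0.03.

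Among other ER membrane factors and regulators of eIF2α, CREB3L2, a relative of CREB3L1 known to act on genes of the secretory pathway, read 3297 without and 5407 with TGF-β, 1.64-fold higher. Its second probe set gave 1.39-fold. CREB3L4, a further relative, read 362 and 238, 1.52-fold lower. The other 13 measured genes of this list were within 1.5-fold, ATF6 with 1415 and 1457 and CREB3L1 with 138 and 106 among them. The dimmer kept probe sets of ATF6 were all lower with TGF-β, with log2 fold changes of -0.40, -0.09 and -0.38.

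Further genes known to respond to ATF4 held the largest changes of the 8 lists. GDF15, a secreted stress cytokine that p53 and TGF-β signalling are also known to regulate, read 1069 without and 197 with TGF-β, which is 5.43-fold lower by a probe set named as cross-matching other transcripts (_x_at). No other GDF15 probe set was kept. The dim ones, below background on both arrays, were not lower, with 37.6 and 40 and with 4.69 and 25.7. STC2, a secreted glycoprotein, read 891 and 489. CTH, the cystathionine γ-lyase, read 707 and 375. They were 1.82-fold and 1.89-fold lower, and both kept probe sets of each had the same direction. VEGFA, the vascular growth factor, went the other way, from 3533 to 7619, which is 2.16-fold higher. Of 22 measured genes in this list, 18 were within 1.5-fold, and the median log2 fold change was 0.03. All 16 measured tRNA synthetases were within 1.5-fold by their brightest probe set. The largest difference among them was that of FARSA, a subunit of phenylalanyl-tRNA synthetase, from 755 to 577. A further kept FARSA probe set, named as sharing targets (_s_at), went from 562 to 286, which is 1.96-fold lower.

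Of 18 other folding genes, FKBP10, a prolyl isomerase that assists collagen folding, was 1.55-fold higher, from 144 to 223. PRKCSH, a subunit of glucosidase II, was just past 1.5-fold lower, from 814 to 542. Of 14 other ERAD genes only HERPUD2, a paralogue of HERPUD1, passed 1.5-fold, from 1398 to 2332, with its other probe sets at 1.64-fold and just under 1.5-fold. Among 13 translocon genes none passed, and SEC61A2 differed most, from 286 to 207. Of 18 other COPII and KDEL receptor genes MIA2, an ER exit site protein, was 1.55-fold lower, from 358 to 232. A second kept MIA2 probe set, close to background, went the other way, from 49 to 61.6. The heat shock genes outside the ER answer to a different stress, and they are cytosolic except the mitochondrial HSPD1 and HSPE1. They were within 1.5-fold in 8 of 9 measured genes. The exception was HSPB1, a small heat shock protein, which read 4757 without and 9772 with TGF-β, 2.05-fold higher by a single probe set.

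**Figure D3:**
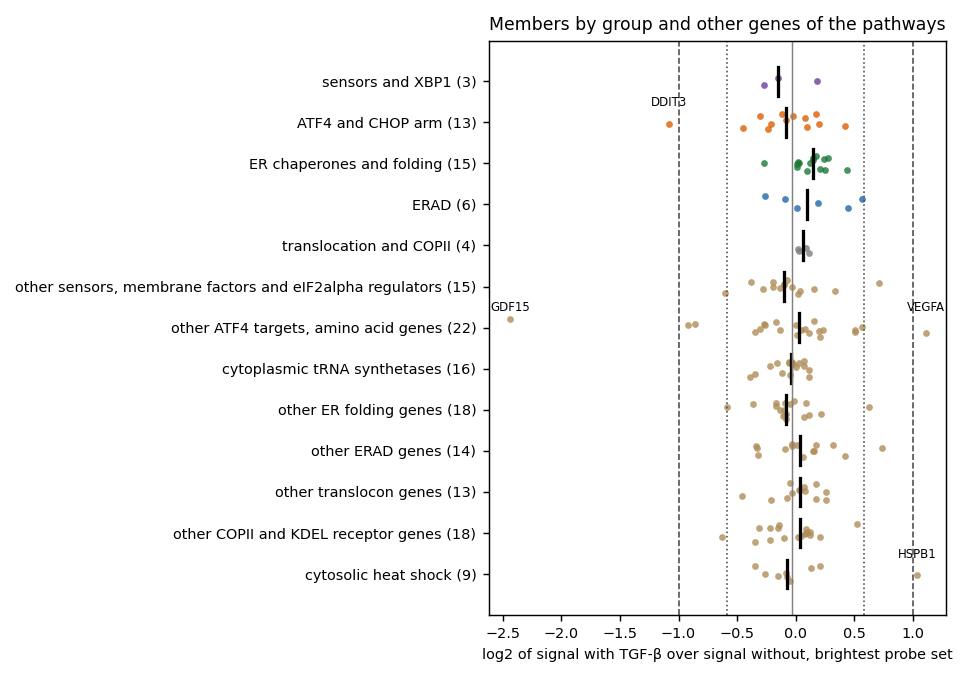
Log2 fold change (TGF-β over control) of the brightest probe set for 41 stress genes in 5 groups and for genes of 8 further lists (brown), with the number measured in brackets. Points are genes, spread vertically at random for legibility. The list labelled cytosolic heat shock also holds the mitochondrial HSPD1 and HSPE1. Black bars are medians, the grey line is the median of all genes (-0.03), and dashed and dotted lines mark 2-fold and 1.5-fold. Genes past 2-fold are named, and medians of the 5 groups lie between -0.15 and 0.15.

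**Figure D4:**
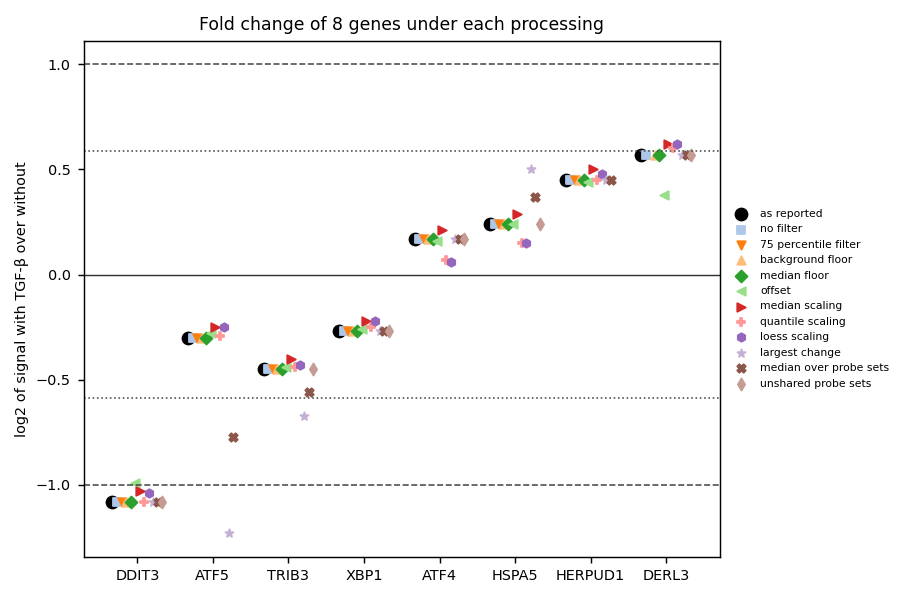
Log2 fold change of 8 stress genes by the reported processing (black) and 11 alternatives (colours and shapes), with 2-fold dashed and 1.5-fold dotted. DDIT3 lies between -1.08 and -0.99 throughout, while ATF5 spans -1.23 to -0.25 depending on the probe set used. DDIT3 has a single probe set, so the choice of probe set could not move it.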

How the data were processed

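RNA from 1 culture of A549 cells without TGF-β and 1 with it was measured. What the authors deposited is a linear intensity for every probe set, made with MAS5 per the labels (no version given). Both arrays had a mean of 500 after trimming 2% at each end, so each had been scaled to a common target. Other MAS5 settings were not given in the sources used here.

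Of 54613 probe sets that are not controls, 41091 had 1 gene symbol, which was updated by gene identifier through RefSeq, 1801 had several and 11721 none. A probe set was kept at a mean signal of at least 48.7, the median over probe sets, and the brightest kept one stood for its gene. Members, groups, lists and motifs were chosen with earlier results of these data known, and the motif with a free last base after the promoters had been read. The 1.3-fold band was likewise set after the values were seen. Of the 8 other lists, genes printed were those at or past 1.5-fold in a list (up to 3 in each direction), the largest change where none passed, and 2 chosen after their values were seen, ATF6 and CREB3L1. COL1A1, TM4SF20 and the cell type markers were printed as checks of the arrays, of which COL1A1 and TM4SF20 are not independent. Probe sets ending in _s_at, _x_at or _a_at were treated as shared.

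The alternatives were no filter, a filter at the 75 percentile (349), floors at the background and at the array median, an offset of 50, median, quantile and loess scaling (span 0.3), and other choices of probe set. Calls were rules of size. The computing of fold changes, and not the calls, was checked on simulated data with known folds. That check does not bear on how reliable a call is. Computing used pandas 2.3.3 and numpy 2.4.6 in Python 3.11.15, with statsmodels 0.14.6 for loess, scipy 1.17.1 and matplotlib 3.10.9.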

Additional observations from a re-analysis of the deposited data

How the results depend on the processing

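With 1 culture per condition, none of these values carries an error between cultures. DDIT3 was lower by at least 1.5-fold under all 11 alternatives, with log2 fold changes from -1.08 to -0.99. It has a single probe set, well above the filters and floors, so only the offset and the scalings could change its value. The other alternatives returned the same value by construction. None of the stress genes was 2-fold higher under any of the 11. The number at least 2-fold lower (1) was 0 with the offset and 2 when the most changed probe set stood for each gene, which added ATF5. The number at least 1.5-fold lower (1) was 3 with the most changed probe set (ATF5 and TRIB3 added) and 2 by the median over probe sets (ATF5 added). The number at least 1.5-fold higher (0) was 1 with median, quantile or loess scaling (DERL3) and 2 with the most changed probe set (DNAJC3 and HSP90B1). By that last choice the median log2 fold change was 0.25 for ERAD and 0.18 for the sensors with XBP1. The other group medians moved by no more than 0.1. Of 437 single-gene values under the alternatives, 418 moved by less than the spread at their brightness. Much of this count was fixed in advance and is no measure of stability. The filters and floors left the values of these genes unchanged. Genes with a single kept probe set could not move under the choices of probe set. DDIT3, the one called gene, kept its sign, but 9 uncalled genes crossed 0 under at least 1 alternative. For 4 of them the move was larger than that spread: with the most changed probe set CANX was at -0.20, DNAJB9 at -0.32, DERL2 at 0.30 and ERN1 at 0.47. Of the genes in the 8 other lists, the number at least 1.5-fold lower (6) was 3 with the offset, median scaling, loess or unshared probe sets and 16 with the most changed probe set, and the number 1.5-fold higher (5) was 2 with unshared probe sets. At 2-fold the number higher (2) was 1 when probe sets were summarized by their median and 0 with unshared ones, and the number lower (1) was 2 with the most changed probe set and 0 with unshared ones. Without probe sets named as shared, 30 stress genes were left. Signal over background limits DERL3, CHAC1 and PPP1R15A, the genes under the stricter filter.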
